A study of Mus musculus with 10 samples.

Results

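The T cell receptor signalling machinery was described here as 44 genes, fixed by name, that build the receptor complex and carry or restrain its signal. All 44 were among the 55809 gene rows counted, and all 44 were among the 16363 genes with enough counts to be tested. The values came from bulk RNA-seq of regulatory T (T_reg) cells from mouse spleen and lymph nodes. All animals carried the Foxp3-AID allele, in which Foxp3 is fused to an auxin-inducible degron and expressed with a ZsGreen reporter and Cre recombinase, and all received the auxin analog 5-ph-IAA for 14 days. The 6 R26-TIR1(F74G) libraries (Foxp3-AID ROSA26-TIR1(F74G), replicates 5 to 10) came from mice whose ROSA26 locus encodes, behind a loxP-flanked STOP cassette, a mutated plant E3 ligase that targets the Foxp3 fusion protein for degradation in the presence of 5-ph-IAA. The 4 R26-WT libraries (Foxp3-AID ROSA26-WT, replicates 1 to 4) lacked the ligase. Protein was not measured in these libraries. The comparison asks how the transcripts of this machinery differed where the Foxp3 protein was targeted for degradation. The paper counts differing genes after 14 days in neonatal and adult Foxp3-AID/y mice. The labels do not say whether these libraries came from such mice. Effects within the cell and effects of a changed environment cannot be told apart. TIR1 is made only where Cre from the Foxp3 allele removed the STOP cassette, and TIR1-expressing cells carry an mCherry reporter that controls lack, so a sort on that reporter, where it was used, cannot be told apart from the genotype. The labels gave no age or sex, and did not say whether a library was 1 mouse or a pool, so p-values measure the spread between these libraries.

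A T cell recognizes a peptide on an MHC molecule through the T cell receptor, which has no enzyme activity of its own and signals through the CD3 chains and CD247 (CD3 zeta). The kinase Lck, brought in by the coreceptor CD4, phosphorylates these chains. Zap70 then docks on them and phosphorylates the adaptors Lat and Lcp2 (SLP-76), on which phospholipase C gamma, Vav and Ras exchange factors assemble and from which calcium entry, Ras and NF-kappaB signalling follow. Phosphatases such as SHP-1 and PTPN22, the kinase Csk, ubiquitin ligases and diacylglycerol kinases restrain the cascade. T_reg cells need receptor signals for their development and for their suppressor function.

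The upstream sequences of the 4 CD3-type signalling chains are shown because these genes are the receptor's signalling subunits. They are the 250 bases before the RefSeq transcription start on build GRCm38.p6, each on the strand of its gene. Capitals mark the letters GGAAGT or their reverse complement ACTTCC, the core that ETS family factors recognize. Cd3d lies at chr9:44981536-44981785 on the plus strand, Cd3g at chr9:44980432-44980681 on the minus strand, Cd3e at chr9:45009612-45009861 on the minus strand and Cd247 at chr1:165788431-165788680 on the plus strand.
Cd3d: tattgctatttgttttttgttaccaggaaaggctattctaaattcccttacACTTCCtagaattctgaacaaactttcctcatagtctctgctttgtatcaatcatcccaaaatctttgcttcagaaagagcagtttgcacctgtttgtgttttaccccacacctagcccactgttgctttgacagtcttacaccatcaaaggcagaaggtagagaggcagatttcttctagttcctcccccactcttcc
Cd3g: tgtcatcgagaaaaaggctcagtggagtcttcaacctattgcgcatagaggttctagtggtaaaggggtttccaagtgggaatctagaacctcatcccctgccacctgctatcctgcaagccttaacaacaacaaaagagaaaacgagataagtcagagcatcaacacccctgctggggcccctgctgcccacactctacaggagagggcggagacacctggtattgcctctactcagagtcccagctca
Cd3e: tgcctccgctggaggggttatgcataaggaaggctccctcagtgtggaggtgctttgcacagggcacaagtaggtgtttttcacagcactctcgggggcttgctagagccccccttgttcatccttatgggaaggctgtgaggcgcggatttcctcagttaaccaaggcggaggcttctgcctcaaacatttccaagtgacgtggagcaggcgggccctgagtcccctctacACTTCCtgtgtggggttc
Cd247: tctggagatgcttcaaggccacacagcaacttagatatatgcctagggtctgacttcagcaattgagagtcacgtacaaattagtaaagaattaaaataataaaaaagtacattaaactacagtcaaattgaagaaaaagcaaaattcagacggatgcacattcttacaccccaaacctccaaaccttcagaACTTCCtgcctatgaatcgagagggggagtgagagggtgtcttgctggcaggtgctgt
Of the 4 windows, those of Cd3d, Cd3e and Cd247 each held 1 such core and that of Cd3g held 0. A window was given for 35 of the 44 genes, and on either strand the core was in 13 of these 35 (37.1%), compared with 22.2% of the 27025 genes with a window of the same length. A forkhead core (TAAACA or TGTTTA), the kind of site that Foxp3 and its relatives bind, was in 4 of 35 (11.4%) and in 13.5% of all windows. Other motifs were counted too: a GC box (GGGCGG) was in 19 of 35 (54.3%) and in 35.4% of all windows. An E-box (CANNTG) was in 29 of 35 (82.9%) and in 69.3% of all windows. A TATA box core (TATAAA) was in 3 of 35 (8.57%) and in 14.3% of all windows. A share above that of all windows was thus not particular to the ETS core. These matches are letters in a window and not measured binding. In the build of the counts (GRCm39), Cd3g (chr9:44880870-44891729) and Cd3d (chr9:44893084-44898637) are transcribed away from each other from starts 1355 bases apart, and Cd3e follows at chr9:44910038-44920925.

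The machinery was expressed at high level in both groups. The median of the 44 genes' mean normalized counts (counts divided by a library size factor) was 12135, compared with 629 over all genes tested. Per length, in TPM (transcript share scaled to 1000000 over all counted genes), Lck had the highest mean over the 10 libraries, with 1877 ± 71.5 in R26-WT (n = 4, SD) and 1909 ± 63.1 in R26-TIR1(F74G) (n = 6, SD). Cd2, which binds an adhesion ligand and enhances the receptor's signal, followed with 1929 ± 247 and 1727 ± 196 TPM, so that in R26-WT its mean was above that of Lck. The ranges of Lck and Cd2 overlapped, so their order was not resolved. Cd3d, Dgka, Cd3g, Lat and Cd3e came next, with means between 775 and 1063 TPM in R26-WT. The CD3 chains and CD247 were not of equal level. Cd247 was at 289 ± 25.8 TPM in R26-WT and 272 ± 27.3 in R26-TIR1(F74G), but 60.3% of its exon bases are shared with Pou2f1 and Gm16565, whose shared read pairs were not counted, so this level is a lower limit. The lowest levels belonged to the exchange factor Sos1, at 7.75 ± 2.76 TPM in R26-WT, and to Rnf128 (GRAIL), a ubiquitin ligase of unresponsive T cells, at 1.20 ± 0.18 TPM.

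**Figure D1:**
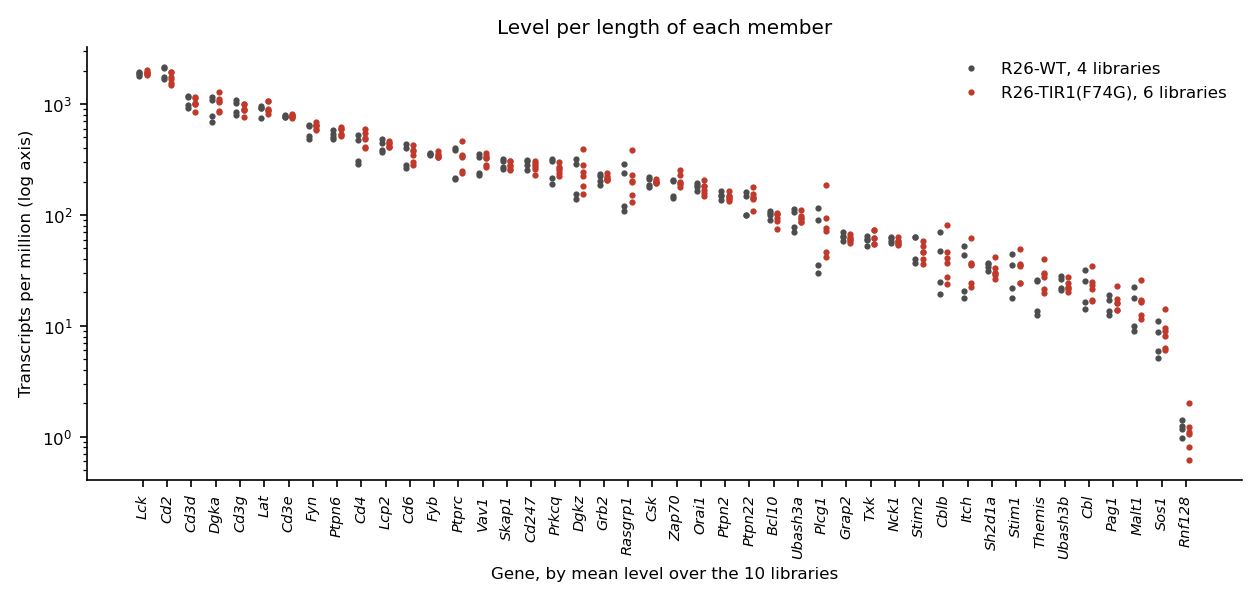
TPM (log axis) of each of the 44 genes, ordered by their mean over the 10 libraries, with one point per library (grey R26-WT, n = 4; red R26-TIR1(F74G), n = 6). Lck and Cd2 stand at the top, Rnf128 lies apart at the bottom, and the red and grey points of each gene overlap.

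Foxp3 transcript, which the degradation acts downstream of, did not part the groups: it lay between 6816 and 11779 normalized counts in R26-WT and between 6778 and 16059 in R26-TIR1(F74G), so these counts cannot check the labels. Libraries held 24158699 to 54795718 counted read pairs, from 44929734 in R26-WT and from 24158699 to 49333756 in R26-TIR1(F74G). T_reg genes were present throughout: the 9 genes of a T_reg identity list, of which Cd3e and Cd4 are also among the 44, summed to 4971 to 5795 CPM (counts scaled to 1000000 per library) in R26-WT and 4754 to 5311 in R26-TIR1(F74G), and 0 of them was called in the main test, with 7 of 9 estimates below 0 and 3 at an unadjusted p under 0.05. Over all genes 6.86% had such an unadjusted p in DESeq2. With a surrogate variable in the model 4 of the 9 were called, where 4.54% of all genes were. Il2ra, the high-affinity IL-2 receptor chain (log2 fold change -0.40, adjusted p = 5.2e-12 in DESeq2), Tnfrsf18 and Izumo1r were lower and Cd4 was higher. Without R26-WT replicates 3 and 4 and R26-TIR1(F74G) replicate 7 Il2ra alone was called (-0.67, adjusted p = 0.00056 in DESeq2), where 543 of 16190 genes were. Among B cell markers, Ms4a1 and Pax5 had at most 4 counts in any library and Ebf1 at most 12, while the B cell receptor chains Cd79a and Cd79b had 130 to 333 and 370 to 1341 counts. The 7 B cell markers summed to 19.2 to 31.8 and 17.2 to 33.9 CPM in the 2 groups, and 1 of the 3 tested was higher, Cd22. The 4 plasma cell markers summed to at most 2.03 CPM, with Mzb1 at 0, the 8 myeloid markers to at most 1.01 CPM, with Itgax, Cd14 and S100a9 at 0, and the 6 erythroid markers to at most 0.579 CPM, with 1 of them at 0. The 7 CD8 and NK cell markers summed to 30.4 to 44.8 CPM in R26-WT and 32.1 to 41 in R26-TIR1(F74G), with Ncr1 at 0 and 1 of 6 tested, Eomes, higher. Of 18 proliferation genes 15 were higher in R26-TIR1(F74G) in DESeq2, where 1.4% of all genes were called higher, and edgeR called 7 of the 18. Their summed level was 152 to 206 CPM in R26-WT and 285 to 457 in R26-TIR1(F74G). The part of dividing cells in the values below was not tested. In bulk libraries, fewer cells of a type and less RNA per cell cannot be told apart.

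None of the 44 genes differed between the groups in the main test: 0 rose and 0 fell where TIR1(F74G) was present during the 14 days of 5-ph-IAA (DESeq2 Wald test, Benjamini-Hochberg adjusted p under 0.05), where 1.74% of all 16363 genes tested were called. edgeR's quasi-likelihood test also called 0 of 44, with 0.373% of all genes called. At an unadjusted p under 0.05 each tool had 1 gene, Themis, and DESeq2 had 6.86% of all genes at this level. In no gene did the normalized counts of the groups fail to overlap, where 2.37% of all genes had groups that did not. The log2 fold changes, R26-TIR1(F74G) over R26-WT, ran from -0.22 for Cd2 to 0.49 for Themis, with 22 above 0 and 22 below. Their median was -0.0011, and that of all genes tested was 0.00063.

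How far a change could be bounded differed between genes. For 43 of 44 genes the 95% interval of the change stayed within 2-fold in either direction, with Plcg1 the exception. For 31 it stayed within 1.41-fold, and for 8 within 1.19-fold. Those past 1.41-fold were Cd4, Cd2, Themis, Sh2d1a, Sos1, Plcg1, Malt1, Rasgrp1, Cblb, Itch, Rnf128, Dgkz and Stim1. These intervals rest on the spread of 10 libraries that also differed along a library axis, described after the genes.

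**Figure D2:**
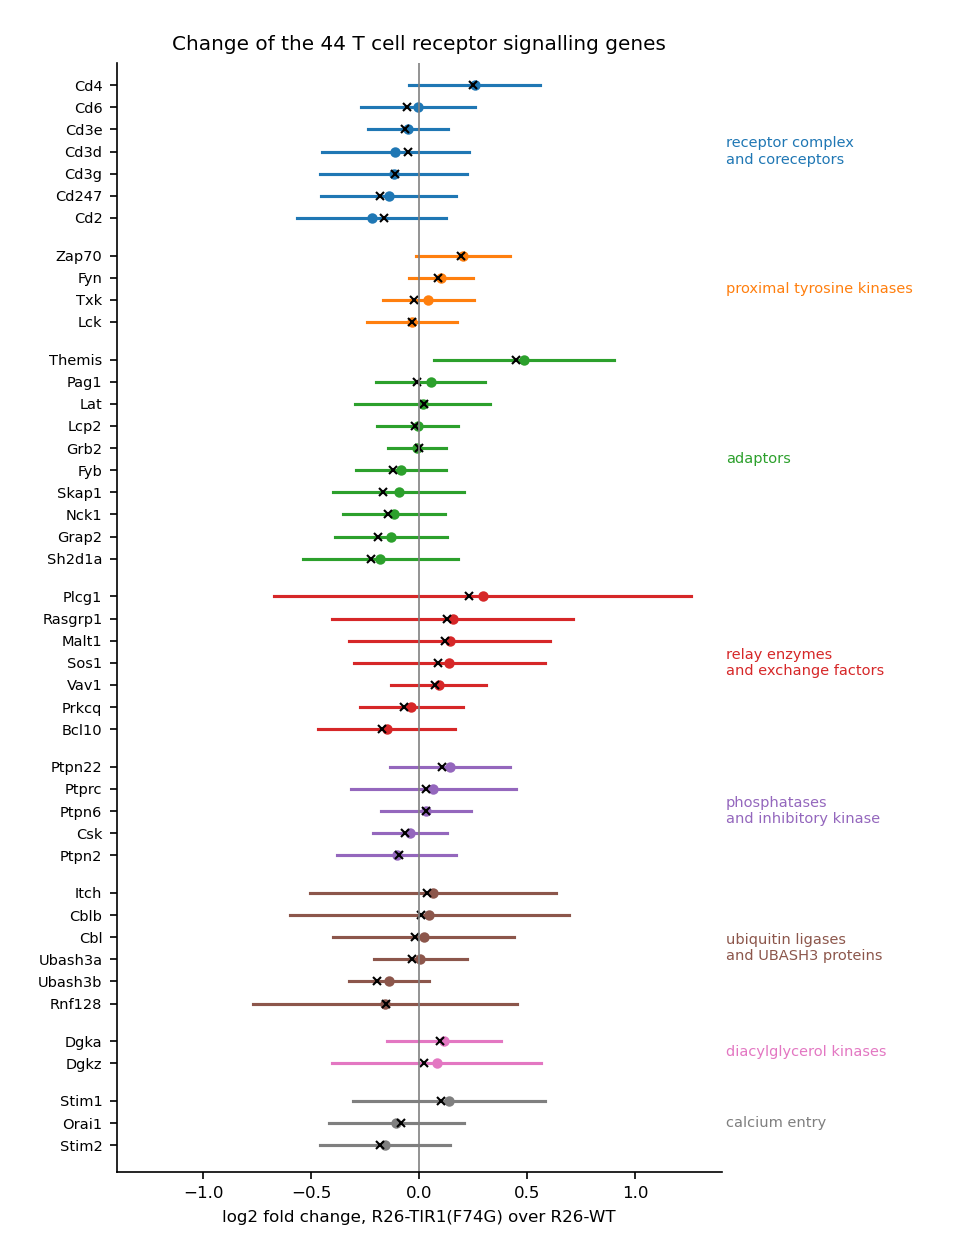
log2 fold change of each of the 44 genes, R26-TIR1(F74G) over R26-WT, grouped by role. Circles and bars are the DESeq2 estimate and its 95% interval (n = 4 and 6 libraries), and crosses are the estimate after removal of each library's trend on exon length and GC content. Themis is the only gene whose bar lies to one side of 0, and Plcg1 has the widest bar.

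Of the receptor complex and its coreceptors, 0 of 7 genes were called, and 6 of the 7 estimates lay below 0 (median -0.11). This direction turned without the 3 libraries at the ends of the library axis (R26-WT replicates 3 and 4 and R26-TIR1(F74G) replicate 7), a fit in which 5 of the 7 lay above 0 (median 0.13) and 0 were called. Cd3e had 44097, 42803, 51097 and 51070 normalized counts in R26-WT replicates 1 to 4, and in R26-TIR1(F74G) from 41850 through a median of 45569 to 48982. Its groups lay over each other, with a log2 fold change of -0.05 ± 0.09 (SE; 95% interval -0.24 to 0.13). Cd3d and Cd3g, the chains that pair with Cd3e, had log2 fold changes of -0.11 and -0.12.

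Cd247, the zeta chain, had 20992, 18702, 26480 and 26242 normalized counts in R26-WT, and 15806, 20564 and 24681 as the lowest, median and highest in R26-TIR1(F74G). R26-TIR1(F74G) replicate 7 alone fell below the R26-WT libraries, and the log2 fold change was -0.14 ± 0.16 (SE). Cd4, the coreceptor, had 27179, 28803, 18816 and 19306 normalized counts in R26-WT and 24828, 28106 and 31544 as the lowest, median and highest in R26-TIR1(F74G). All 6 R26-TIR1(F74G) libraries lay above R26-WT replicates 3 and 4, and 2 lay above replicates 1 and 2 as well. Its log2 fold change was 0.26 ± 0.16 (SE; adjusted p = 0.97 in DESeq2).

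Cd2 had 43204, 39896, 61323 and 57766 normalized counts in R26-WT and 33327, 41969 and 52706 as the lowest, median and highest in R26-TIR1(F74G). Of the 6 R26-TIR1(F74G) libraries 2 lay under the lowest R26-WT value, and the log2 fold change was -0.22 ± 0.18 (SE; adjusted p = 1 in DESeq2), and 0.13 without the 3 end libraries. Cd6, a scavenger receptor family member that binds at the synapse, had a log2 fold change of -0.01.

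Of the 4 proximal tyrosine kinases, 0 were called. Lck had 80402, 71207, 89502 and 87500 normalized counts in R26-WT and 69011, 81544 and 85529 as the lowest, median and highest in R26-TIR1(F74G). The groups overlapped over almost their whole range, with a log2 fold change of -0.03 ± 0.11 (SE; 95% interval -0.24 to 0.18). Zap70 had 8444, 8409, 6890 and 7040 normalized counts in R26-WT and 8117, 8578 and 9949 as the lowest, median and highest in R26-TIR1(F74G). Its log2 fold change was 0.20 ± 0.11 (SE; adjusted p = 0.87 in DESeq2), and R26-WT replicates 3 and 4 again lay below all R26-TIR1(F74G) libraries.

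Fyn, the other Src family kinase of T cells, had a log2 fold change of 0.10, and its 6 R26-TIR1(F74G) libraries were tightly placed, with a coefficient of variation of 1.21% compared with 7.32% in R26-WT. Txk, a Tec family kinase, had 0.04.

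Of the 10 adaptors, 0 were called, with 3 estimates above 0 and 7 below, and without the 3 end libraries 7 above and 3 below. Themis, an adaptor needed for thymocyte selection, had the largest change of the 44. It had 4297, 4042, 2368 and 2516 normalized counts in R26-WT and 3597, 3805, 4543, 4781, 4945 and 6112 in R26-TIR1(F74G), ordered by size. The highest R26-WT library was exceeded by 4 of the 6 R26-TIR1(F74G) libraries, and R26-WT replicates 3 and 4 lay below all 6. The log2 fold change was 0.49 ± 0.21 (SE; 95% interval 0.07 to 0.90), with a DESeq2 adjusted p of 0.48 and an edgeR adjusted p of 0.64.

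Removing each library's trend on exon length and GC content left Themis with 2953 to 4020 normalized counts in R26-WT and 4141 to 4971 in R26-TIR1(F74G), groups that did not overlap. The log2 fold change in that fit was 0.45 ± 0.11 (SE; adjusted p = 0.0025 in DESeq2), and Themis was then the 1 called gene of the 44, where 2.19% of all genes were called. Leaving out the 3 end libraries, the log2 fold change fell to 0.06 ± 0.15 (SE; adjusted p = 0.83 in DESeq2), with 2 R26-WT libraries left. The sign was the same in these fits, and the call was not.

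Sh2d1a (SAP), the adaptor of SLAM family receptors, had 2622, 2361, 3241 and 3198 normalized counts in R26-WT and 1880, 2347 and 3528 as the lowest, median and highest in R26-TIR1(F74G). The log2 fold change was -0.18 ± 0.18 (SE), the groups overlapped, and 26.6% of its exon bases are shared with Tenm1. Lat and Lcp2, the scaffold on which the signal is assembled, had log2 fold changes of 0.02 and -0.01. Grb2, the link to Sos1, was the steadiest of the 44 genes, with a highest to lowest ratio of 1.11 over the 10 libraries and a log2 fold change of -0.01 ± 0.07 (SE). Grap2 (GADS), which joins Lcp2 to Lat, had -0.13, the actin adaptor Nck1 -0.12, the integrin adaptors Skap1 and Fyb -0.10 and -0.08, and Pag1, which anchors Csk, 0.05.

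Of the 7 relay enzymes and exchange factors, 0 were called, with 5 estimates above 0 (median 0.14), and this too turned without the 3 end libraries, where 6 of the 7 lay below 0 (median -0.29). Plcg1, the phospholipase that makes diacylglycerol and inositol trisphosphate, had 9992, 12455, 3841 and 4393 normalized counts in R26-WT and 5023, 5582, 7962, 8423, 10374 and 19023 in R26-TIR1(F74G), ordered by size. Both groups were spread over their own means, with coefficients of variation of 55.2% and 54.3%. The log2 fold change was 0.29 ± 0.49 (SE; 95% interval -0.67 to 1.26), and without R26-TIR1(F74G) replicate 7 it was -0.04, so no direction could be given for Plcg1.

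Rasgrp1, the diacylglycerol-driven Ras exchange factor, spanned 9758 to 22066 normalized counts in R26-WT and 11246 to 28101 in R26-TIR1(F74G), with a log2 fold change of 0.15. Vav1, the Rac exchange factor, had 0.09, Sos1 had 0.14 and Prkcq (PKC theta) had -0.04. Bcl10 and Malt1, partners in the complex that leads to NF-kappaB, had -0.15 and 0.14.

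Of the 13 phosphatases, Csk, ubiquitin ligases, UBASH3 proteins and diacylglycerol kinases, most of which restrain the signal, 0 were called. Of the 6 ubiquitin ligases and UBASH3 proteins 4 estimates lay above 0, and without the 3 end libraries 5 lay below. Both diacylglycerol kinases turned from above 0 to below in that fit. Ptprc (CD45), the phosphatase that also activates Lck, and the phosphatases Ptpn6 (SHP-1), Ptpn22 and Ptpn2 had log2 fold changes of 0.07, 0.03, 0.14 and -0.10. Csk, the kinase that shuts off Lck, had -0.04 ± 0.09 (SE). The ubiquitin ligases Cblb, Cbl and Itch had 0.05, 0.02 and 0.06, with standard errors of 0.33, 0.21 and 0.29. Rnf128 had 48, 55, 70 and 77 normalized counts in R26-WT and 33, 50.6 and 99 as the lowest, median and highest in R26-TIR1(F74G), a log2 fold change of -0.16 ± 0.31 (SE), which ran from -0.41 to -0.04 when 1 library was left out. The groups overlapped.

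Ubash3b (STS-1), a phosphatase that acts on Zap70, had 2906, 2636, 2512 and 2506 normalized counts in R26-WT and 2236, 2376 and 2609 as the lowest, median and highest in R26-TIR1(F74G). Of the 6 R26-TIR1(F74G) libraries 4 lay under the lowest R26-WT library, and the log2 fold change was -0.14 ± 0.09 (SE; adjusted p = 1 in DESeq2). Its relative Ubash3a had 0.00 ± 0.11. The diacylglycerol kinases Dgka and Dgkz, which remove diacylglycerol, had 0.12 ± 0.13 and 0.08 ± 0.25.

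Of the 3 genes of calcium entry, 0 were called. Stim2, a sensor of calcium in the endoplasmic reticulum, had 4549, 4412, 3095 and 3207 normalized counts in R26-WT and 2844, 3383 and 3921 as the lowest, median and highest in R26-TIR1(F74G). All 6 R26-TIR1(F74G) libraries lay below R26-WT replicates 1 and 2, and 1 lay below replicates 3 and 4 as well, with a log2 fold change of -0.16 ± 0.15 (SE; adjusted p = 1 in DESeq2) that ran from -0.25 to -0.06 when 1 library was left out. Its relative Stim1 had 0.14 ± 0.23, and the channel Orai1 had -0.11 ± 0.16.

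**Figure D3:**
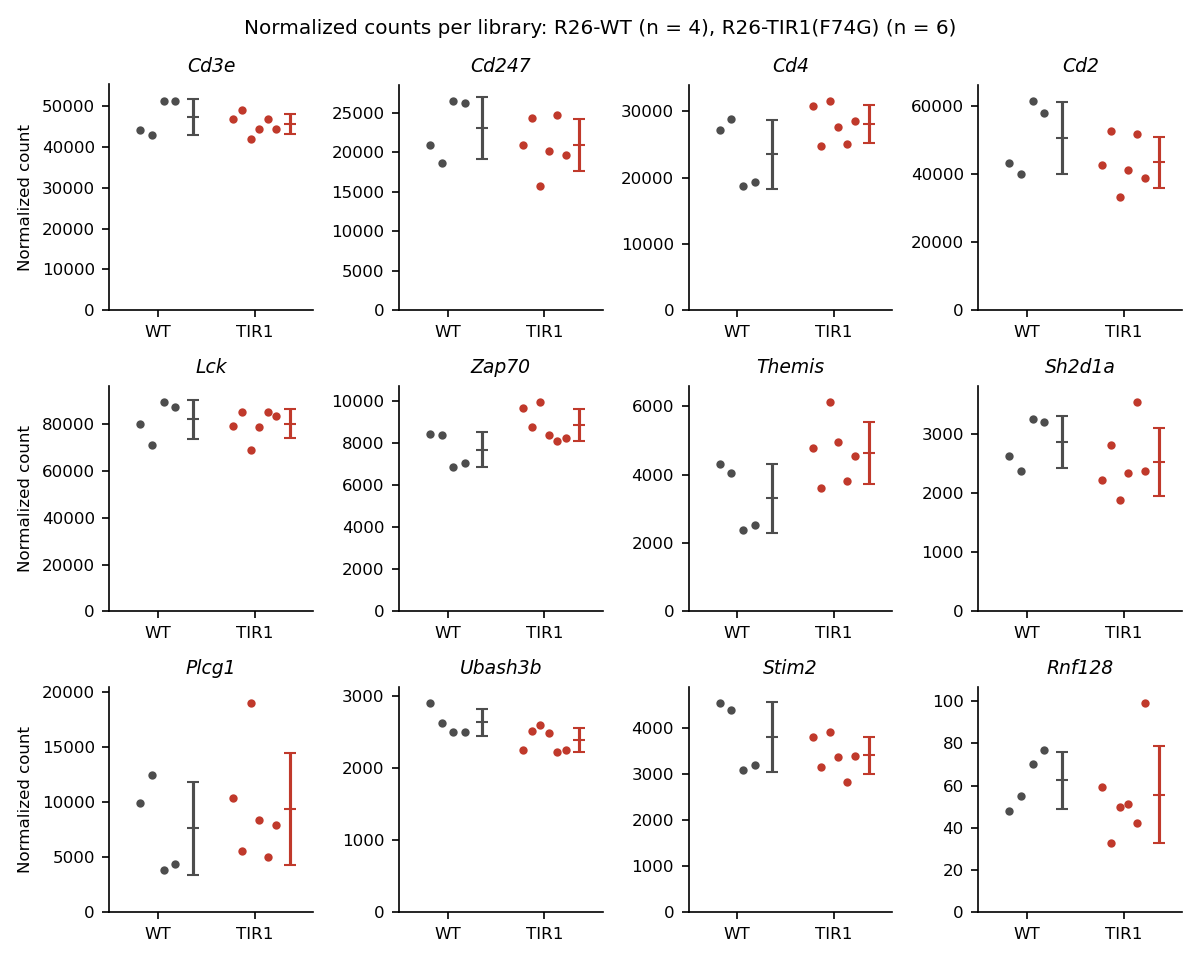
Normalized counts of 12 of the genes in each library (grey R26-WT, n = 4; red R26-TIR1(F74G), n = 6, replicates from left to right; linear axes from 0), with the mean and SD beside the points. In most panels the R26-WT points fall into replicates 1 and 2 against 3 and 4, with the R26-TIR1(F74G) points spread over both levels.

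The 10 ratios of related genes, each per length, asked whether the balance within the machinery had moved. In an exact two-sided permutation test of library labels (210 arrangements, smallest p 0.0095), 0 of 10 passed after adjustment. The largest difference was in Stim2 to Stim1, which was 1.76, 1.402, 2.07 and 1.80 in R26-WT and 1.19, 1.41 and 1.63 as the lowest, median and highest in R26-TIR1(F74G). The mean difference on the log2 scale was -0.32, with an exact p of 0.038 and an adjusted p of 0.38 over the 10 ratios. The Ubash3b to Ubash3a ratio was 0.271 ± 0.0278 in R26-WT (n = 4, SD) and 0.243 ± 0.0168 in R26-TIR1(F74G) (n = 6, SD), with an exact p of 0.076 and an adjusted p of 0.38. The Cd247 to Cd3e ratio was 0.372 ± 0.029 and 0.351 ± 0.0396, and the Fyn to Lck ratio 0.305 ± 0.0521 and 0.332 ± 0.0254, with exact permutation p-values of 0.35 and 0.23.

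Libraries of 1 group differed among themselves. In R26-WT, replicates 1 and 2 lay wholly apart from replicates 3 and 4 for 41 of the 44 genes (93.2%), 25 of them higher in 1 and 2 and 16 higher in 3 and 4; over all genes tested the share was 70.6%. R26-WT replicates 3 and 4 or R26-TIR1(F74G) replicate 7 held the highest or the lowest value, or both, of 37 of the 44 genes. A library axis was therefore taken as the first principal component of the 500 most variable genes other than these 44 and the listed genes, which held 61.2% of their variance. R26-WT replicates 3 and 4 lay at one end (-16.5 and -14.9), R26-TIR1(F74G) replicate 7 at the other (24.4), and the groups overlapped between them.

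Of the 44 genes 18 followed this axis with a Pearson r above 0.8 and 14 ran against it with an r below -0.8, together 72.7%. Of the 7160 genes with a mean of at least 1000 normalized counts 58.5% were past these bounds, and of all genes tested 35.3%. Plcg1 (r = 0.99, Spearman = 1), Rasgrp1 (r = 0.98, Spearman = 0.99) and Malt1 (r = 0.97, Spearman = 0.96) rose along the axis. Cd247 (r = -0.97, Spearman = -0.89), Cd3d (r = -0.97, Spearman = -0.92), Cd3g (r = -0.97, Spearman = -0.93) and Lck (r = -0.95, Spearman = -0.95) fell along it. Each of these 7 had adjusted permutation p-values of at most 0.00015 for r and 0.0025 for the Spearman coefficient over the 44 genes (n = 10 libraries). Without the 2 libraries farthest from the median of the axis, r was 0.98, 0.97 and 0.97 for the first 3 and -0.94, -0.95, -0.97 and -0.90 for the others, and within the 6 R26-TIR1(F74G) libraries alone it was 0.98 for Plcg1 and -0.96 for Cd3g. The 4 R26-WT libraries are too few for a value of their own.

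**Figure D4:**
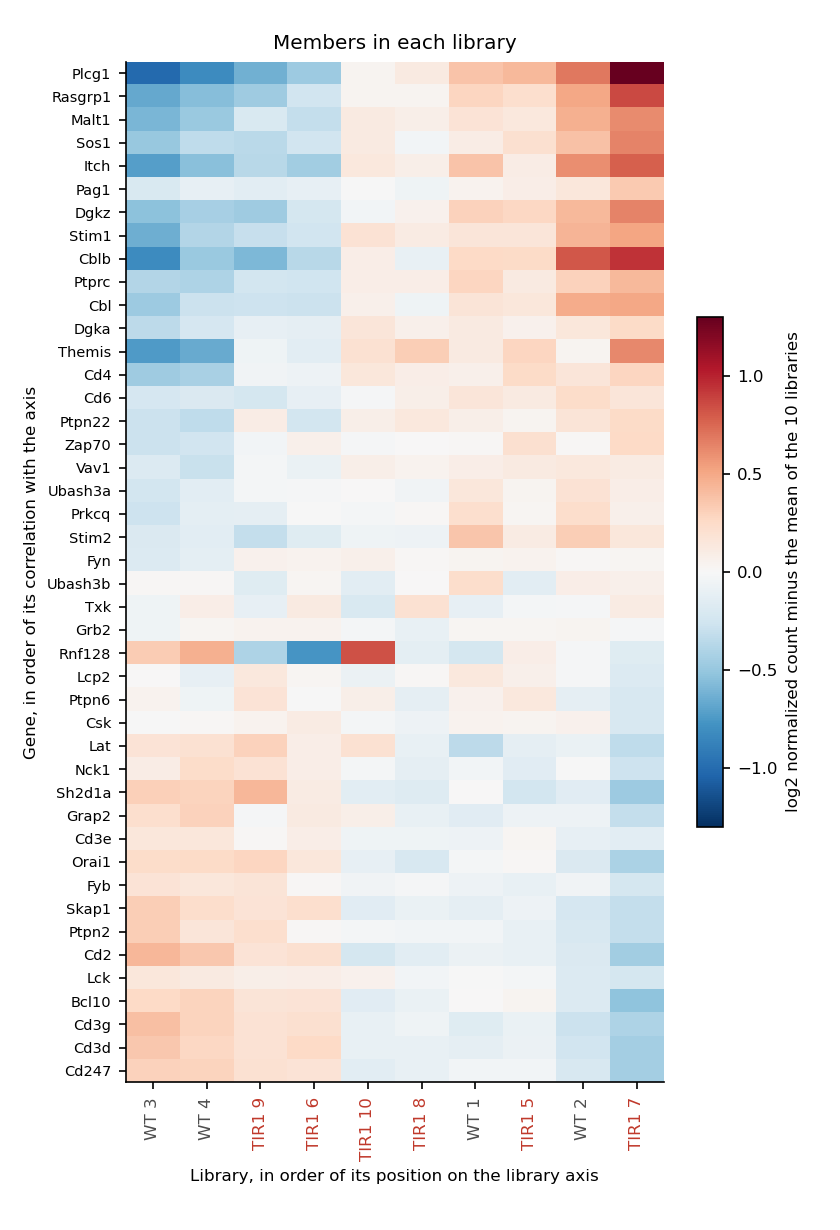
log2 normalized counts of the 44 genes in the 10 libraries, each gene relative to its own mean (red higher, blue lower). Libraries run left to right along the library axis and genes run top to bottom by their correlation with it, so that Plcg1 to Cd4 rise to the right, Lat to Cd247 fall, and R26-WT and R26-TIR1(F74G) libraries are mixed along the axis.

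The axis divided the machinery. The CD3 chains, Cd247, Cd2, Lck, Skap1, Fyb, Bcl10, Ptpn2 and Orai1 ran against it, while Plcg1, Rasgrp1, Sos1, Malt1, Ptprc, the ligases Cblb, Cbl and Itch, both diacylglycerol kinases, Stim1 and Themis ran with it. Between them stood 12 genes that did not pass either bound, among them Grb2 (r = -0.04), Txk, Lcp2, Fyn, Csk and Ptpn6. The genes that ran with the axis had a median of 8774 exon bases (2992 to 18313), those against it 4322 (1741 to 7462). The 12 genes between had a median of 4411 and all genes tested one of 3419. The genes against the axis were thus about as long as those between. Across the 44 genes the Spearman correlation between a gene's r and its exon length was 0.64, and across all genes tested it was 0.48; these are across genes, which are not independent replicates.

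The same axis could be read from each library's slope of log2 counts on log2 exon length. This slope was -0.10 and -0.08 in R26-WT replicates 3 and 4 and 0.12 in R26-TIR1(F74G) replicate 7, with overlapping groups (mean ± SD -0.016 ± 0.091 over 4 R26-WT libraries and 0.011 ± 0.067 over 6 R26-TIR1(F74G) libraries). After removal of the trend on length and GC content, the highest to lowest ratio of Plcg1 over the 10 libraries went from 4.95 to 3.21, that of Themis from 2.58 to 1.68 and that of Cd3d from 1.73 to 1.38. The ratio became smaller for 29 of the 44 genes and larger for 15. It became smaller for 17 of the 18 genes that ran with the axis, and larger for 8 of the 14 that ran against it, among them Skap1 (1.55 to 2.25), Sh2d1a (1.88 to 2.31), Grap2 (1.52 to 2.04) and Cd247 (1.68 to 2.08). RNA integrity and amplification, which the labels give only as ranges or kits, were not tested.

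**Figure D5:**
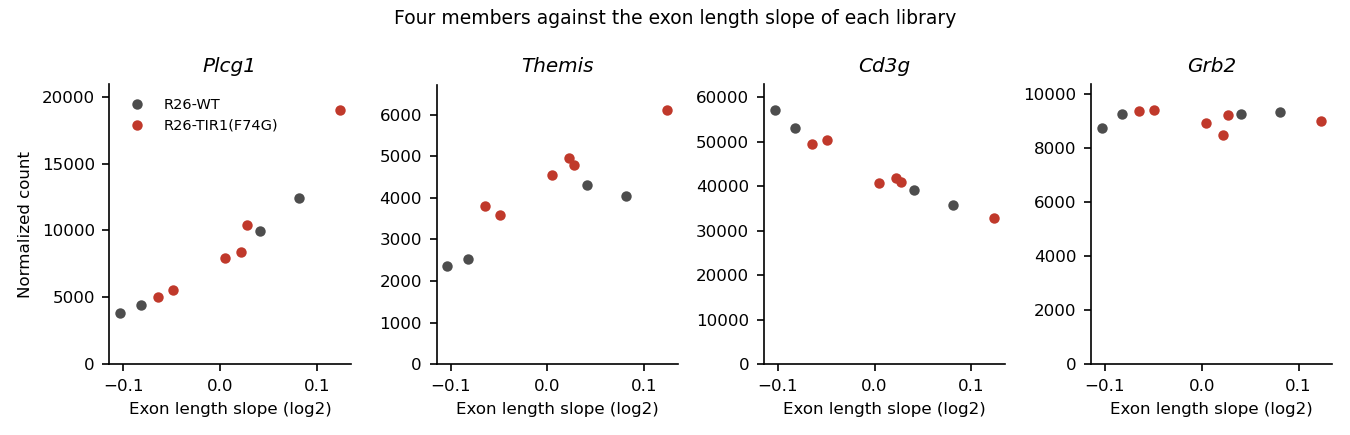
Normalized counts (linear axes from 0) of 4 of the genes against each library's slope of log2 count on log2 exon length (grey R26-WT, n = 4; red R26-TIR1(F74G), n = 6). Plcg1 rises and Cd3g falls along the slope with both groups on one course, Grb2 is flat, and the Themis points of R26-TIR1(F74G) lie above R26-WT points of similar slope.

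The 3 CD3 genes of chromosome 9 moved closely together. Over the 10 libraries Cd3d and Cd3g had an r of 0.99 (Spearman 0.96) and Cd3d and Cd3e an r of 0.95 (Spearman 0.99), with adjusted permutation p-values of at most 6e-05 over 4 pairs. Cd247, on chromosome 1, followed Cd3d with an r of 0.98 and a Spearman coefficient of 0.90 (adjusted permutation p of 3e-05 and 0.00083). Without the 2 libraries farthest from the median of Cd3d, these were 0.99, 0.92 and 0.97. All 4 genes share the library axis described above, so these values describe the libraries as much as the genes.

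With 1 surrogate variable in the DESeq2 model, estimated from all genes, 3 of the 44 genes were called, where 4.54% of all genes were. Themis and Cd4 were higher (log2 fold changes of 0.39 and 0.20, adjusted p of 2.1e-05 and 0.035) and Stim2 was lower (-0.22, adjusted p of 0.020). Without the 3 libraries at the ends of the axis, 0 were higher and 3 lower, Stim2 (-0.43, DESeq2 adjusted p = 0.032), Itch (-0.57, adjusted p = 0.047) and Cblb (-0.67, adjusted p = 0.049), where 2.16% of all genes were called lower. Stim2 was called lower in both of these fits, while in that fit Cd4 had -0.03 (adjusted p = 0.90). The 2 R26-WT libraries left were replicates 1 and 2, in which Stim2, Itch and Cblb are all higher than in replicates 3 and 4.

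Of 61 further genes of the pathway, all tested, 1 differed: Rhoh, a GTPase-deficient small G protein that brings Zap70 and Lck to the receptor, was lower, where 0.336% of all genes were called lower. It had 27266, 27838, 30727 and 29130 normalized counts in R26-WT and 21869, 23081 and 24273 as the lowest, median and highest in R26-TIR1(F74G). All 6 R26-TIR1(F74G) libraries lay below all 4 R26-WT libraries, with a log2 fold change of -0.31 ± 0.07 (SE; adjusted p = 0.0035 in DESeq2), and edgeR gave an adjusted p of 0.12. The call was lost without R26-WT replicate 3 (adjusted p = 0.055) or 4 (0.079), and the estimate was -0.23 without the 3 end libraries (adjusted p = 0.098). It was also lost in limma voom (-0.31, adjusted p = 0.081), with upper-quartile size factors (-0.32, DESeq2 adjusted p = 0.056) and with the length and GC trend removed (-0.37 ± 0.16, SE, DESeq2 adjusted p = 0.39), where the groups overlapped, with R26-WT from 23867 and R26-TIR1(F74G) up to 26309 normalized counts. With a surrogate variable it was kept (-0.29, DESeq2 adjusted p = 1.02e-08).

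In this list 2 of 61 genes had groups that did not overlap, Rhoh and Cd5, where 2.37% of all genes did. Cd5, a surface protein that dampens the receptor's signal, was singled out after its values were seen. It had 35545, 34219, 36948 and 35925 normalized counts in R26-WT and 27232, 31411 and 33921 as the lowest, median and highest in R26-TIR1(F74G), a log2 fold change of -0.19 ± 0.09 (SE; adjusted p = 0.56 in DESeq2) that did not pass the test. It was called with a surrogate variable (-0.17, adjusted p = 0.037 in DESeq2), and its groups overlapped once the length and GC trend was removed. The list had 29 estimates above 0 and 32 below, with a median of -0.0038, and 22 and 39 without the 3 end libraries. Its receptor chains Trac, Trbc1 and Trbc2 had log2 fold changes of -0.09, -0.15 and -0.16, the costimulator Cd28 -0.15 and the transcription factor Nfatc1 0.25, each with an adjusted p of 1.

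Of 12 genes that rise early after receptor engagement, 1 was lower and 0 were higher, where 0.336% of all genes were called lower. Tnfrsf9 (4-1BB), a costimulatory receptor, had 7410, 7670, 8610 and 7247 normalized counts in R26-WT and 4861, 5592 and 6095 as the lowest, median and highest in R26-TIR1(F74G). All 6 R26-TIR1(F74G) libraries lay below all 4 R26-WT libraries, and the log2 fold change was -0.49 ± 0.11 (SE, DESeq2 adjusted p = 0.00056, edgeR adjusted p = 0.051). DESeq2 called it in each of the 10 fits that left out 1 library, and limma voom did not call it (-0.47, adjusted p = 0.056). Cd69, the early activation marker, had a log2 fold change of -0.42 ± 0.16 (SE; adjusted p = 0.28 in DESeq2). Of the receptor-induced nuclear receptors, Nr4a2 had the lowest estimate of the list, -0.51 ± 0.33 (SE; adjusted p = 1), Nr4a3 had -0.31 ± 0.16 (SE; adjusted p = 0.81) with all 6 R26-TIR1(F74G) libraries below the R26-WT mean, and Nr4a1 had -0.06. The transcription factors Egr1, Egr2 and Myc had 0.06, 0.16 and 0.05, each with an adjusted p of 1. With a surrogate variable 2 of the 12 were called lower, Tnfrsf9 and Rel, where 4.54% of all genes were called in either direction. Without the 3 end libraries 3 were called lower, Tnfrsf9, Rel and Irf4, where 2.16% of all genes were. The estimate of Irf4 went from 0.22 in the main test to -0.52. The R26-WT libraries left were replicates 1 and 2, in which Irf4 and Rel were higher than in replicates 3 and 4. Irf4 had 1460, 1812, 671 and 548 normalized counts in R26-WT replicates 1 to 4, and Rel 2297, 2845, 1579 and 1632. The list had 5 estimates above 0 and 7 below, with a median of -0.06, and 2 and 10 without the 3 end libraries.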

How the data were processed

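RNA-seq libraries of T_reg cells (polyA RNA, SMART-Seq v4 amplification per the labels, no molecular identifiers named) were analysed from the gene counts that the authors deposited, 1 file per library. Per the file headers, the authors counted read pairs with featureCounts 2.1.1 on GENCODE M30 (GRCm39), unstranded, with primary alignments of mapping quality 30 or more. The study's methods name STAR for alignment, while the submitters' processing notes name Bowtie2. Pairs that overlap 2 genes were not counted, which lowers genes that share exons.

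The 16363 genes whose count averaged 10 or more were tested in R 4.3.3 with DESeq2 1.42.0 (two-sided Wald test, genotype only, adjusted p under 0.05), the test in the study's methods, with edgeR 4.0.16 and limma 3.58.1 beside it. Other fits removed each library's trend on exon length and GC content (mgcv 1.9.3), added 1 surrogate variable (sva 3.50.0), changed the size factors or the count minimum (50, or none), or left out libraries. Permutation tests were run in scipy 1.17.1, exact for ratios and with 100000 resamples for correlations. TPM was computed from the deposited counts and exon lengths. The tests were tested on simulated data. Pairs of replicates differed by more than sampling noise (chi-square per degree of freedom 9.84 to 242 in 21 pairs). The depth of 24158699 to 54795718 counts left at least 29 counts for each of the 44 genes in each library, and intervals cover the spread between libraries.

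The 44 genes and all lists were chosen with earlier results of these data known. All 44 are given by role. For R26-WT, values in every library are given for the 4 largest changes in each direction and for Cd3e, Cd247, Cd4, Lck and Zap70. The same rule covers any of the 44 called in the main test or by edgeR, or with groups that do not overlap. For R26-TIR1(F74G), every library is given for Themis and Plcg1, and the lowest, median and highest values for the others. From the further pathway and early response lists the genes called by DESeq2 are named. Ubash3b, Cd5 and the other genes named from those lists were added after their values were seen.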

Additional observations from a re-analysis of the deposited data

Results flagged for a closer look

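Of 118 sets of values of 1 group (the 44 genes, 4 genes of the lists, the total counts and the 10 ratios), 3 held a library farther from its neighbour than a gap test at 95% allows, where chance gives about 5.9. The Grb2 normalized count of R26-WT replicate 3 was 8731, under the 9247 to 9335 of the other 3. The Foxp3 normalized count of R26-TIR1(F74G) replicate 7 was 16059, above the 6778 to 9851 of the other 5. The Fyn to Lck ratio of the same library was 0.38, above the 0.311 to 0.334 of the other 5. This library also stood at the end of the library axis, and the part of that axis in these values was not tested.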

How the results depend on the processing

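The number of the 44 genes called was 0 in DESeq2, edgeR and limma voom, with other size factors, with other count minima and without any 1 library. It was 1 (1 higher) with the length and GC trend removed, 3 (2 higher, 1 lower) with a surrogate variable, and 3 (all 3 lower) without the 3 libraries at the ends of the library axis, a fit chosen after seeing the data. The median log2 fold change of the 44 moved by less than its spread between libraries in all fits. Of the 61 further pathway genes 0 were called in edgeR, limma voom, the upper-quartile fit and the trend fit. With a surrogate variable 3 were (Rhoh, Cd5 and Ppp3ca), where 4.54% of all genes were called. Without the 3 end libraries 2 were (Sos2 and Traf6), where 543 of 16190 genes were called. In R26-WT replicates 1 and 2, the ones left in that fit, Sos2 and Traf6 were higher than in replicates 3 and 4. Leaving out 1 library each gave 0 to 1. The cause of these differences was not tested.

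Of 792 log2 fold changes of the 44 genes over the planned fits, 721 kept their sign and stayed uncalled, 67 changed sign, all uncalled, and 4 became called. In limma voom with quality weights, those that changed sign were Cd6 0.0557, Lat -0.0189, Lcp2 0.00252 and Prkcq 0.00499. With upper-quartile size factors, it was Ubash3a -0.0028. With the length and GC trend removed, they were Txk -0.0264, Pag1 -0.00917, Cbl -0.0191 and Ubash3a -0.0325. With a surrogate variable, they were Lck 0.0141, Lcp2 0.00237, Pag1 -0.00883, Rasgrp1 -0.00489, Ptprc -0.0277, Cblb -0.13, Cbl -0.0842, Itch -0.0762, Ubash3a -0.0259 and Dgkz -0.0558. Leaving out 1 library each, the changes of sign lay in ranges of Cd3g -0.22 to 0.00057, Cd6 -0.0756 to 0.0774, Lck -0.0952 to 0.0115, Lat -0.0825 to 0.0872, Lcp2 -0.0415 to 0.0392, Grb2 -0.0313 to 0.00919, Pag1 -0.0197 to 0.11, Sos1 -0.00218 to 0.32, Plcg1 -0.0383 to 0.63, Prkcq -0.12 to 0.0365, Malt1 -0.00267 to 0.36, Rasgrp1 -0.0464 to 0.38, Ptprc -0.0428 to 0.19, Ptpn6 -0.00132 to 0.0715, Cblb -0.19 to 0.40, Cbl -0.11 to 0.21, Itch -0.12 to 0.32, Ubash3a -0.0661 to 0.0739, Dgkz -0.0636 to 0.25 and Stim1 -0.0156 to 0.34. Among genes that kept their sign it moved Cd247 (-0.23 to -0.07), Cd4 (0.16 to 0.37), Cd2 (-0.32 to -0.11), Sh2d1a (-0.30 to -0.11) and Ubash3b (-0.17 to -0.09) by over 1.5 times, all uncalled. These were not the only ones. Further genes that moved, also uncalled, included Cd3d (-0.21 to -0.010), Cd3e (-0.098 to -0.013), Skap1 (-0.18 to -0.00056) and Ptpn2 (-0.18 to -0.0083). So did Bcl10 (-0.23 to -0.071), Orai1 (-0.19 to -0.040), Csk (-0.068 to -0.0067) and Txk (0.0046 to 0.083). Vav1 (0.021 to 0.16), Dgka (0.035 to 0.19), Ptpn22 (0.066 to 0.23) and Themis (0.36 to 0.64) moved as well. Foxp3, which is not among the 44, had -0.0957 with a surrogate variable and -0.15 to 0.24 leaving out 1 library each. The log2 differences of ratios ranged over the Cd3d to Cd3e ratio -0.11 to 0.000931, the Cd3g to Cd3e ratio -0.12 to 0.0185, the Cblb to Cbl ratio -0.0487 to 0.18 and the Dgkz to Dgka ratio -0.11 to 0.0593, and the Cd3d to Cd3e ratio had 0.00668 with the trend removed. In each of these ratio fits 0 of 10 passed. The 7 genes whose change was larger than its standard error (Cd4, Cd2, Fyn, Zap70, Themis, Ubash3b and Stim2) kept 1 sign in all 18 planned fits. Without the 3 end libraries 2 of these 7 turned, Cd4 (-0.03) and Cd2 (0.13). No paired analysis was possible because replicate numbers 1 to 4 and 5 to 10 do not meet. Counts were lowest for Rnf128, with 29 to 114 per library.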
